A study of Mus musculus with 15 samples.

Results

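Untreated colon adenomas were set against normal-looking colon epithelium of tumor-bearing mice, and gene classes were described over a whole mouse genome array. The members are the 3 arrays of untreated adenoma and the 4 arrays of tumor-bearing epithelium, 7 of the 15 arrays of the series. Adenoma arrays 1 and 2 differed by less than the spot noise that the scanner software reports (SD of the log2 difference 0.0878 against a noise of 0.189), and so did epithelium arrays 1 and 3 (0.103 against 0.197). Each such pair was averaged and counted as 1 sample, which leaves 2 adenoma and 3 epithelium samples, 5 of the 10 samples of the series. No array is tied to an animal in the labels, so the p-values measure the spread between samples within the groups of the whole series, which may in part be technical. Besides the groups compared, this spread takes in 2 samples of adenoma from mice given sulindac at 300 ppm plus atorvastatin at 100 ppm. It also takes in 3 samples of tumor-free epithelium from mice given atorvastatin at 100 ppm. Array 2 of the tumor-bearing epithelium also lay as close to array 2 of the tumor-free epithelium (SD 0.183 against a noise of 0.178) as arrays of the same RNA would, although the labels name different mice.

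The adenoma cells came from untreated male mice on a C57BL/6J background that carry Apc(+/Min-FCCC), aged 6 to 8 weeks at colonoscopy and found to bear tumors. The epithelium came, per its source name, from tumor-bearing mice given atorvastatin, a statin that blocks cholesterol synthesis, for 7 days at 100 ppm in chow. Its own labels give neither strain, sex nor age, and the protocol shared by the series names Apc+/Min-FCCC males throughout. That protocol sends tumor-bearing mice to plain chow or to sulindac plus atorvastatin, so the label of atorvastatin alone is at odds with it, and the label was followed. Tissue and drug change together between these groups, so adenoma against epithelium and untreated against atorvastatin cannot be told apart in any value given here. Both groups carry the Apc mutation in the germ line, and neither is tissue of a wild-type mouse. Cells were cut out by laser, and 10 ng of RNA went through 2 rounds of linear amplification, so a level reflects the dissected mixture of cells after amplification. In such mixtures, fewer cells of a type and less RNA per cell cannot be told apart.

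The Min mutation truncates Apc, a scaffold of the complex that marks beta-catenin for destruction. When the remaining copy is lost, beta-catenin accumulates, enters the nucleus with Tcf/Lef factors and keeps on genes that are normally limited to the crypt base, where the intestinal stem cells lie. In the normal colon, cells leave the crypt base and become absorptive colonocytes, which take up water and salt and detoxify compounds from the lumen, or goblet, enteroendocrine and tuft cells. Colon adenomas of Apc mutant mice are known for active Wnt signalling, for loss of differentiated cell products and for an inflamed surrounding stroma.

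Levels are log2 of the processed spot intensity minus the array's 75th percentile, so a level of 0 lies at that percentile. Sample levels are given in a fixed order, for the adenoma the mean of arrays 1 and 2 and then array 3, and for the epithelium the mean of arrays 1 and 3, then array 2, then array 4. A log2 difference is adenoma minus epithelium, and its standard error (SE) comes from a limma fit to all 10 samples. A gene was called at a Benjamini-Hochberg adjusted p under 0.05 in that fit. Where a gene was well above background on no array of a group, its level there is only a limit, and the fold is given as at least that number. Levels of different genes come from different probes and were not set against each other. General epithelial markers were at hand in both groups. Of 15 such genes tested, limma called 0, and 1 had an unadjusted p under 0.05. Their differences ran from -1.16 to 4.60, the latter that of Cldn4, whose samples did not overlap. The summed level of these markers ran from 8.70 to 8.91 in the adenoma samples and 8.88 to 9.5 in the epithelium samples, and their median difference was -0.27 (0.03 after quantile normalization and 0.08 in the authors' deposited table). Epcam, a surface adhesion protein of epithelial cells, had levels of 5.78 and 5.90 in the adenoma and 5.74, 5.91 and 4.81 in the epithelium. Its samples overlapped, and its difference was 0.36 ± 0.46 SE (adjusted p = 0.64). Vil1 (villin, of the brush border) differed by -0.78 and was not called. The epithelial cadherin Cdh1 (E-cadherin) stood at 5.13 and 4.68 against 5.25, 5.33 and 4.42, overlapping, and was not called either; its difference of -0.10 was positive in several alternatives.

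Of 27791 features on the array, 17417 were well above background in at least 1 of both groups and were tested. Limma called 2084 of them, 12% of those tested. Of these, 925 were higher in the adenoma (5.31%) and 1159 were lower (6.65%), and every called gene had adenoma samples that did not overlap the epithelium samples. With so few samples that separation alone was common: 8065 features, 46.3% of those tested, did not overlap. The smallest called difference was 1.3 on the log2 scale, 410 genes were over 10-fold higher and 425 over 10-fold lower. Of the genes called higher, 216 were well above background on no epithelium array, and 84 of those called lower on no adenoma array. On simulated arrays of this design with 17288 genes, a log2 change of 4 was found for 79% of the 200 changed genes and a log2 change of 2 for 0%. Only 200 genes changed there, against 2084 called here, and the spreads were shuffled between genes. The adjusted p depends on how many genes differ, so these shares do not give the power of the real comparison. A gene that was not called may still differ by several fold. The median of all tested features was -0.13 on the log2 scale.

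**Figure D1:**
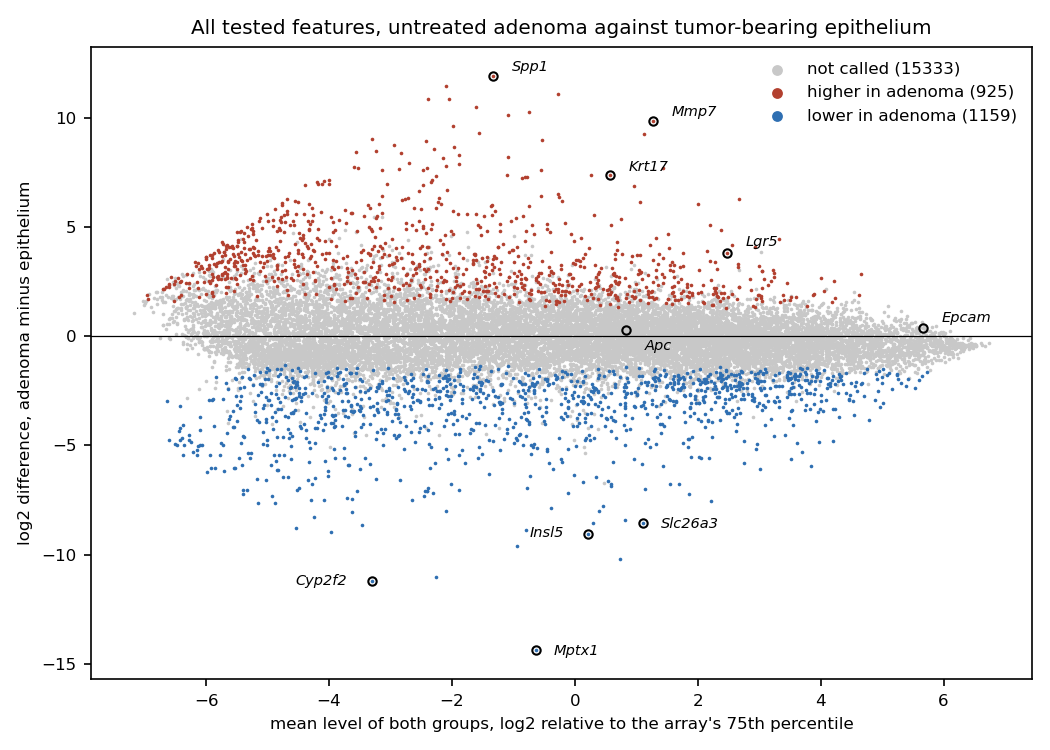
Log2 difference (untreated adenoma minus tumor-bearing epithelium, vertical) against the mean log2 level (horizontal) for the 17417 tested features, with the 925 called higher and the 1159 called lower coloured. Spp1, Mmp7, Krt17 and Lgr5 lie far above 0, Insl5, Slc26a3, Cyp2f2 and Mptx1 far below it, and Epcam and Apc near it.

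The call rests on few samples, and 1 library weighs heavily. Without adenoma array 3, which leaves a single adenoma sample whose spread is assumed to be that of the other groups, 283 of the 925 higher and 302 of the 1159 lower genes kept their call. Without adenoma arrays 1 and 2 the numbers were 352 and 456, without epithelium array 2 they were 630 and 643, and without epithelium arrays 1 and 3 they were 578 and 600. Epithelium array 4 stood apart from the other arrays of its group (SD of the log2 difference 1.06 to 1.12). Without it 881 and 1118 kept the call, and 4086 features were called in all. All called genes kept their sign in every alternative in which they were tested. Both groups shared 2 scan dates, but the arrays of those dates belong to the same samples that gave the calls, so signs within a date are no separate check. With every array in the fit and near-identical arrays as a random block, 1570 of the 2084 kept their call.

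Among genes measured in both groups, one of the widest rises was that of Reg3b, a secreted lectin that binds bacteria. Reg3b had levels of 5.96 and 4.58 in the adenoma samples and -7.47, -7.96 and -2.07 in the epithelium samples (log2 difference 11.10 ± 1.46 SE, adjusted p = 0.00144). The probe of Reg3b lies on chromosome 6, 78391237 to 78391296 (build mm7, from the array design). Its neighbour and relative Reg3g rose by 9.23 (from -7.52, -3.85 and 0.93 to 5.91 and 5.59, adjusted p = 0.0203), a call lost without adenoma array 3 (log2 difference 9.39) and without adenoma arrays 1 and 2 (9.08). Hp (haptoglobin, which binds free haemoglobin) stood at 4.42 and 4.33 against -7.50, -2.71 and -7.42, a rise of 10.25 ± 1.43 SE (adjusted p = 0.00189). In the epithelium both Reg genes were highest on array 4 and Hp on array 2, and for none of these genes did the groups overlap. Adcy8, an adenylyl cyclase stimulated by calcium, rose by 9.64 ± 0.99 SE, from -7.44, -5.59 and -7.40 to 1.86 and 3.81. Slc38a4, an amino acid transporter, rose by 10.49 ± 0.90 SE, from -7.47, -8.43 and -4.67 to 3.19 and 4.08, but a further probe of Slc38a4 differed by 0.72 and was not called. Otop2, a proton channel, rose by 8.67 ± 0.57 SE. Spp1 (osteopontin, a secreted matrix protein) was well above background on no epithelium array and at 3.71 and 5.56 in the adenoma, at least 1140.2-fold higher (adjusted p = 1.23e-05; probe on chromosome 5, 103631152 to 103631211, mm7). Erich3 was at least 168-fold higher (adenoma 1.78 and 2.11).

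Among the deepest falls were secreted and metabolic products of the gut. Mptx1, a mucosal pentraxin, was at 6.80, 6.70 and 6.16 in the epithelium and well above background on no adenoma array, at least 9438-fold lower (adjusted p = 9.67e-07; probe on chromosome 1, 174299277 to 174299336, mm7). Otc (ornithine transcarbamylase, of the urea cycle) stood at -6.25 and -9.06 in the adenoma against 0.22, -0.68 and 1.70 in the epithelium, a log2 difference of -8.06 ± 0.94 SE (adjusted p = 0.000814). Both adenoma samples were below all epithelium samples. Hao2, a peroxisomal hydroxyacid oxidase, fell from 4.75, 4.25 and 4.16 to -2.90 and -4.30, and Aadac, an esterase of the endoplasmic reticulum, from 3.59, 3.12 and 3.88 to -3.36 and -5.28. Btnl1, a butyrophilin of the gut epithelium that maintains its resident gamma delta T cells, was at least 160.4-fold lower (epithelium 1.54, -0.34 and 0.33), and Ckmt2, a mitochondrial creatine kinase of striated muscle, at least 90.7-fold lower (epithelium 0.21, 1.26 and -1.92).

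**Figure D2:**
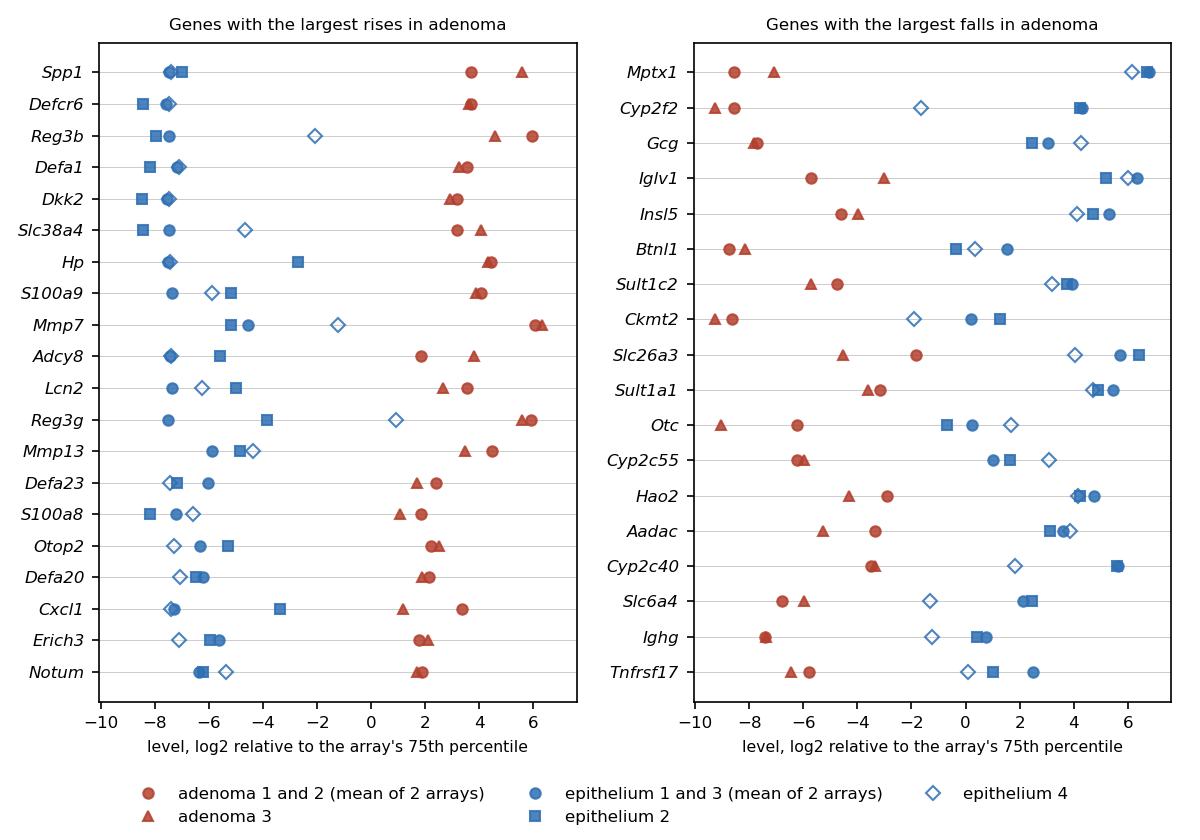
Log2 level relative to the array's 75th percentile (horizontal) in each of the 2 adenoma and 3 epithelium samples for 20 of the largest rises and 18 of the largest falls, 1 gene per line, with levels below background drawn as measured. The adenoma points lie to the right of all epithelium points in the rises and to the left of them in the falls.

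Seen by class, the calls fell unevenly over the array. Genes of the Wnt response, alpha-defensins, matrix metalloproteinases, neutrophil products and interleukins were called mostly higher, while immunoglobulins, enteroendocrine hormones, absorptive cell products and detoxifying enzymes were called mostly lower. Ribosomal proteins, aminoacyl-tRNA synthetases, major histocompatibility genes, p53 targets and general epithelial markers had no called member. These shares are read against the 12% called over all tested features, and the lists were not tested as sets. A feature could pass the filter through its brighter group alone, which favours calls in that direction.

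**Figure D3:**
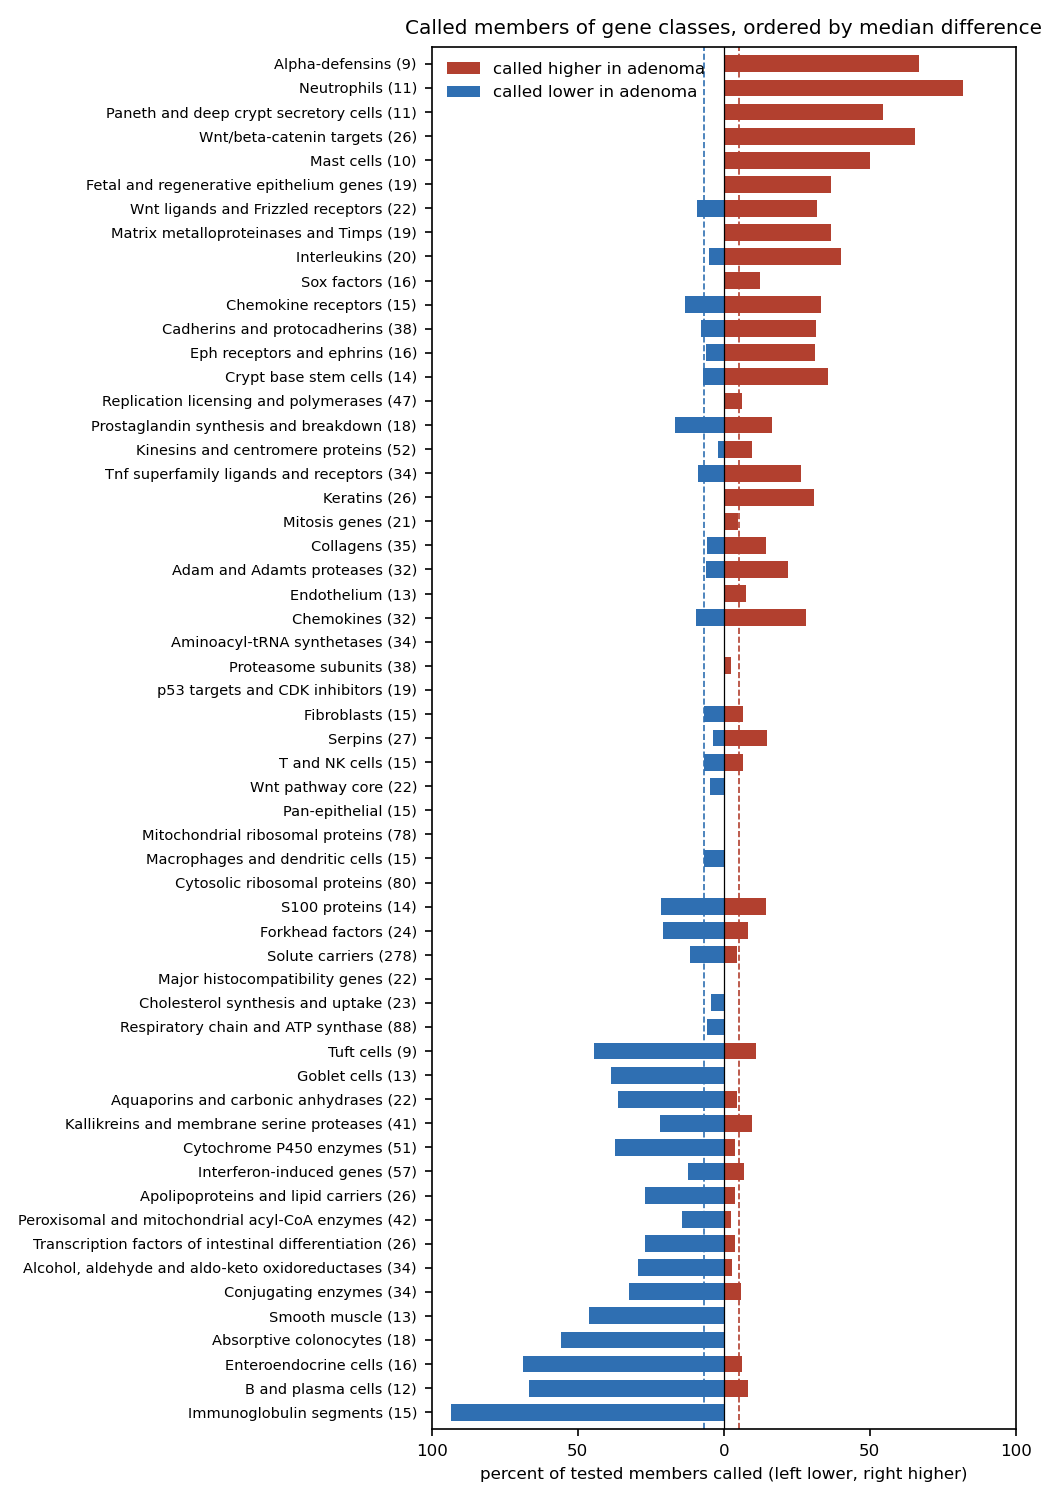
Percent of tested members called higher (right) and lower (left) in untreated adenoma for each gene class, with the number of tested members beside the name; dashed lines mark the 5.31% higher and 6.65% lower over all tested features. Wnt targets, defensins and neutrophil genes extend to the right, immunoglobulins and enteroendocrine genes to the left.

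Target genes of beta-catenin and Tcf/Lef were called higher more often than the 5.31% of all tested features. Of 28 such genes on the array 26 were tested and 17 were called, all higher, with a median difference of 3.17 over those tested. Of the 17, 11 kept their call without adenoma array 3 and 14 without arrays 1 and 2. Axin2, a scaffold of the destruction complex that Wnt signalling itself induces, had levels of 3.30 and 2.84 in the adenoma and -0.55, 0.29 and 0.35 in the epithelium (log2 difference 3.04 ± 0.45 SE, adjusted p = 0.00249). Lgr5, the R-spondin receptor that marks crypt base stem cells, stood at 4.09 and 4.70 against 0.53, -0.16 and 1.33 (3.83 ± 0.51 SE, adjusted p = 0.00156). Myc, the growth-promoting transcription factor, stood at 4.30 and 4.60 against 1.73, 1.91 and 2.16 (2.52 ± 0.39 SE, adjusted p = 0.00308), and of its further probes 1 was called and 1 was not, with differences of 2.56 and 2.63. For these target genes both adenoma samples lay above all epithelium samples. Secreted feedback inhibitors were among the genes called. Notum, an enzyme that strips the lipid from Wnt proteins, was well above background on no epithelium array and at 1.86 and 1.71 in the adenoma, at least 171-fold higher. Dkk2, a ligand of the Wnt co-receptors, was at least 379-fold higher (adenoma 3.18 and 2.91). Sp5, a zinc finger factor that limits Wnt target genes, stood at 2.76 and 2.90 against -2.45, -7.79 and -3.15 (7.29 ± 1.29 SE, adjusted p = 0.0063). The cyclin gene Ccnd1 stood at 2.40 and 3.73 against 2.28, 1.05 and 1.36 and was not called (1.50 ± 0.70 SE, adjusted p = 0.188). The call of Sp5 was lost without adenoma array 3 (log2 difference 7.22). With near-identical arrays as a random block the call of Axin2 was lost (limma adjusted p = 0.0967).

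The promoter of Sp5 is shown because it holds a Tcf/Lef motif close to the start of a gene that was among the strongest Wnt responders here. Promoters are from RefSeq on build GRCm38.p6. In each, a motif was searched for on both strands in the 250 bases before the start, and capitals mark the match. For Tcf/Lef the letters searched were CTTTGAA and CTTTGAT. The stretch of Sp5 is chr2:70474793-70474922 on the plus strand, and its motif begins 104 bases before the start.
Sp5: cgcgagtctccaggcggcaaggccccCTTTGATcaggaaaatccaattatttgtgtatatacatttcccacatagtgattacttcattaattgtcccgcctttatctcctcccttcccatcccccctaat
Such a motif stood in 3 of the 11 Wnt target genes called higher that have a promoter entry. Over all 27025 genes with an entry the share was 8.63%. A match is a description of the letters, not evidence of binding.

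Several Wnt ligands rose as well. Of 29 ligand and Frizzled receptor genes 22 were tested, 7 were called higher and 2 lower. The median difference was 1.81, or 1.10 with genes below background in the epithelium set at their limit. Wnt3, the ligand that Paneth cells supply to stem cells in the small intestine, had levels of 1.34 and 1.58 in the adenoma and -4.51, -6.94 and -7.32 in the epithelium (7.71 ± 0.94 SE, adjusted p = 0.00107). Wnt10a stood at -0.08 and 0.10 against -5.53, -5.19 and -4.13, and Wnt6 at -0.70 and 0.71 against -3.64, -2.21 and -4.12. For these ligands the groups did not overlap, and the epithelium was low in every sample. Wnt16 was at least 6.44-fold higher. Of the 7 higher calls 4 remained without adenoma array 3 and 6 without arrays 1 and 2. Fzd5, a receptor of the crypt, ran the other way, with -4.14 and -6.69 against -1.33, -1.58 and -0.16 (-4.39 ± 1.11 SE, adjusted p = 0.0316), and so did Fzd8 (-2.83). For both receptors another probe was not called, with differences of -0.66 for Fzd5 and 0.57 for Fzd8. The calls of Wnt6, Fzd5 and Fzd8 were lost without adenoma array 3 (log2 differences 2.63, -3.12 and -2.51). With near-identical arrays as a random block the call of Wnt10a was lost (limma adjusted p = 0.0899).

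The core machinery that carries the signal showed little of this. Of 22 tested core genes 1 was called, the repressive factor Tcf7l1, which fell by 3.88 on the log2 scale (0.92 and -0.69 against 4.78, 4.96 and 2.25, adjusted p = 0.0133). The call of Tcf7l1 was lost without adenoma array 3 (log2 difference -3.07). Apc itself stood at 0.98 and 0.95 in the adenoma and 1.16, 0.65 and 0.29 in the epithelium. Its samples overlapped, the difference was 0.27 ± 0.48 SE (adjusted p = 0.742), and its other 4 probes lay between -0.98 and 0.58. A point mutation or loss of a copy need not change the probe's signal, so this says nothing about the state of the gene. Ctnnb1, which encodes beta-catenin, stood at 5.67 and 5.71 against 5.25, 5.31 and 4.20 (0.77 ± 0.48 SE) and was not called. The median of the core genes was -0.18 and ran from -0.61, with the scan date as a block, to 0.02, without epithelium arrays 1 and 3.

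**Figure D4:**
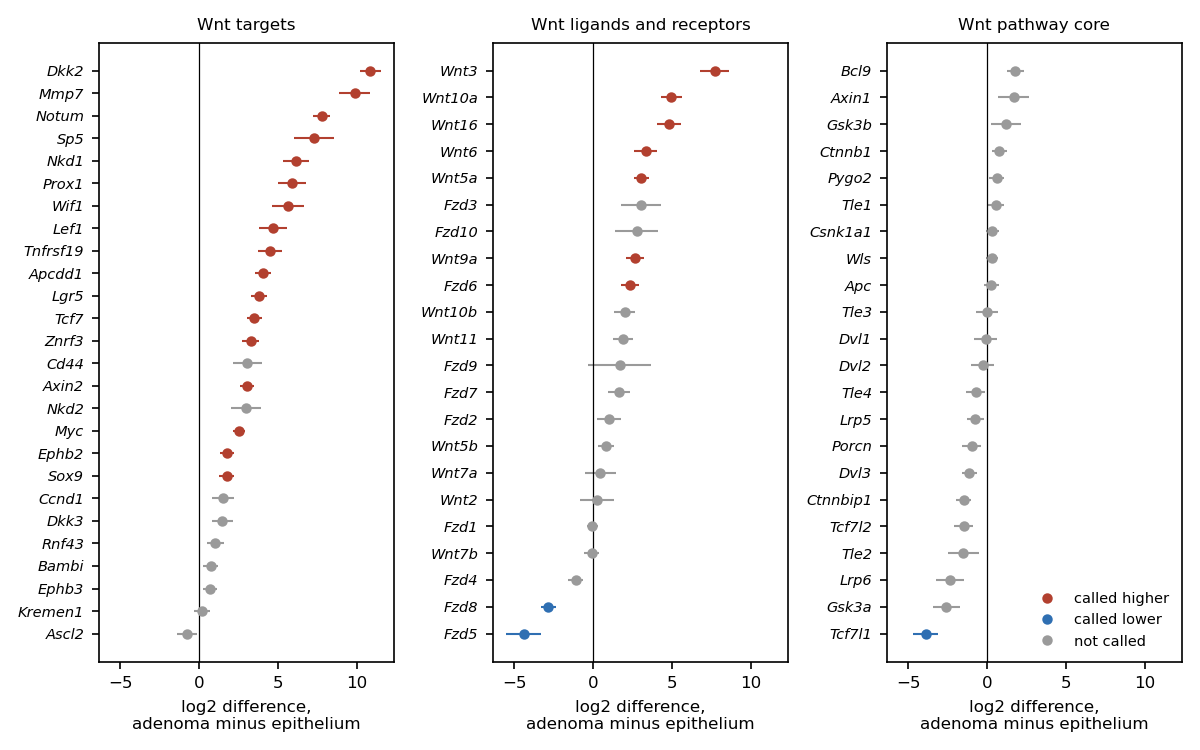
Log2 difference ± SE (limma, horizontal) of Wnt target genes, Wnt ligands with Frizzled receptors and core pathway genes, 1 gene per line, with called genes coloured and the others grey. The target genes lie to the right of 0 with few exceptions and 17 are called, while the core genes scatter around 0.

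Markers of crypt base stem cells overlap with the Wnt targets. Of 14 tested, 5 were higher, among them Lgr5 and Axin2, Tnfrsf19 (a Tnf receptor family member of stem cells, 4.50 ± 0.75 SE), Cdca7 (1.82 ± 0.42 SE) and the crypt transcription factor Sox9 (1.75 ± 0.46 SE, another probe 0.59 and not called). Msi1, an RNA-binding protein of progenitors, was called lower (-3.26) on the probe used, but another probe of Msi1 was called higher (2.46), so no direction is given for it. Of the 5 higher calls 2 remained without adenoma array 3. Summed stem cell markers ran from 7.15 to 7.58 in the adenoma samples and 6.05 to 6.25 in the epithelium samples, without overlap.

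Genes known from the fetal and the regenerating gut epithelium were called higher as well. Of 19 tested, 7 were called, all higher, and all 7 kept their call with any single sample left out. The median was 2.54, but 0.94 without adenoma arrays 1 and 2, 1.33 without epithelium array 4 and 1.06 over members above background on every array of both groups. They included Spp1. Il33, an alarmin held in the nucleus, stood at 3.73 and 3.11 against -1.55, -0.77 and -3.48 (5.36 ± 0.79 SE, adjusted p = 0.00245), and its receptor Il1rl1 at 5.27 and 5.28 against -1.65, -3.51 and -2.05 (7.68 ± 1.14 SE, adjusted p = 0.00246). Ligand and receptor were both high in the 2 adenoma samples and low in the 3 epithelium samples. Il1rl1 is also carried by mast cells, whose summed markers ran from 3.05 to 3.18 in the adenoma samples and 1.22 to 2.52 in the epithelium samples, with Mcpt2 and Tpsab1 well above background on no epithelium array. Their part in the result was not tested.

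Keratins form the intermediate filaments of epithelia, and most members that moved are known from stratified epithelium and hair. Of 46 keratin genes 26 were tested, and 8 were called, all higher. Krt17, a keratin of wounded and basal epidermis, had levels of 4.01 and 4.50 in the adenoma and -2.89, -2.74 and -3.74 in the epithelium (7.38 ± 0.54 SE, adjusted p = 5.98e-05). Krt36 stood at 2.56 and 3.37 against -2.65, -2.37 and -5.56, and Krt14, of basal cells, at 1.94 and 3.39 against -0.59, -0.62 and -2.14. All 3 separated the groups in every sample. Of the 8 calls 5 remained without adenoma array 3 and 4 without arrays 1 and 2. Krt27 was at least 4.77-fold higher, and its fitted difference of 3.35 dropped to 1.91 without adenoma arrays 1 and 2. Krt8, the main partner keratin of simple epithelium, did not separate (6.14 and 6.37 against 6.97, 6.87 and 6.31, -0.46). The class median of 0.74 was -0.46 over the keratins above background on every array of both groups, so the direction of the class as a whole depends on that filter.

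Cell adhesion genes split by family. Of 38 tested cadherins and protocadherins 12 were higher and 3 lower. The higher ones were mostly clustered protocadherins of the beta group, led by Pcdhb15 (-2.66 and -1.68 against -7.03, -5.81 and -7.15, 4.49 ± 0.56 SE), Pcdhb16 (3.32 ± 0.64 SE) and Pcdhb14 (at least 4.69-fold), with Pcdh19 (3.08, another probe -0.55 and not called). The beta protocadherins are near-identical single-exon genes, so their probes may share signal. Of the 12 higher calls 1 remained without adenoma array 3 and 3 without arrays 1 and 2. The lower ones were Cdhr1 (-5.22 and -9.20 against -1.40, -0.89 and -2.07, -5.76 ± 1.13 SE, and -3.77 without adenoma array 3) and Cdh26 (-4.01 ± 0.89 SE), and all 3 lower calls were lost without that array. The class median was 1.15, and -0.83 over members above background on every array of both groups. Among Eph receptors and ephrins, which sort cells along the crypt, 5 of 16 were higher and 1 lower. Efna5 rose by 4.93 ± 0.73 SE, Epha2 by 2.99 ± 0.76 SE and Epha7 by 2.70 ± 0.64 SE, while Efnb1, the ligand of differentiated villus and surface cells, fell by 3.13 on the log2 scale (1.56 and 1.43 against 4.86, 4.81 and 4.19). Without adenoma array 3, 1 of the 5 higher calls remained, and the lower call of Efnb1 was lost.

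Several transcription factors of the mature intestine were lower. Of 26 tested, 7 were called lower and 1 higher, and the median was -1.14. Vdr, the vitamin D receptor, stood at -0.02 and 0.08 in the adenoma and 4.68, 4.73 and 3.21 in the epithelium (-4.18 ± 0.65 SE, adjusted p = 0.00337). Nr1h4, the bile acid receptor, stood at 0.62 and 0.25 against 4.51, 4.84 and 3.48 (-3.85 ± 0.55 SE), and Ppara, which drives fatty acid oxidation, at -4.60 and -4.73 against -2.58, -1.97 and 1.30 (-3.58 ± 0.97 SE). For these nuclear receptors both adenoma samples were below every epithelium sample. Nr1i3, a sensor of foreign compounds, differed by -4.60, and by -2.96 without adenoma array 3. Klf4, a factor that stops proliferation at the crypt top, stood at 2.81 and 1.83 against 6.05, 5.92 and 5.02 (-3.35 ± 0.50 SE, adjusted p = 0.00249). Of the 7 lower calls 4 remained without adenoma array 3. The exception was Gata5, an endoderm factor, at least 15.8-fold higher. The hindgut identity factor Cdx2 stood at 3.88 and 3.29 against 4.25, 2.04 and 5.27 and was not called (-0.27, of changing sign over the alternatives), and Hnf4a, a regulator of the absorptive programme, stood at 1.42 and 1.43 against 2.66, 3.25 and 2.60 (-1.41 ± 0.50 SE, adjusted p = 0.0983).

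From other factor families single members are named. Of 24 forkhead genes tested 2 were higher (8.33%) and 5 lower (20.8%), beside 5.31% and 6.65% of all tested features. Foxc1, a forkhead factor of mesenchyme, rose by 7.17 ± 1.00 SE (1.49 and 1.05 against -6.93, -3.78 and -7.00), and its relative Foxc2 by 3.56 ± 0.73 SE. Foxa2, an endoderm factor, fell (-2.42 ± 0.44 SE), and so did Foxp2 (-4.30 ± 0.59 SE). Of 16 Sox factors tested 2 were called, both higher, 1 of them Sox11 (at least 9.08-fold). Of 22 Hox genes tested Hoxa10 rose (3.21 ± 0.50 SE) and Hoxb9 fell (-3.09 ± 0.71 SE). That is 4.55% in each direction, below the shares of all tested features. Of 287 zinc finger proteins 8 were higher and 7 lower, a share below that over all tested features. The calls of Foxc2, Foxa2, Hoxa10 and Hoxb9 were lost without adenoma array 3 (log2 differences 4.13, -2.10, 2.76 and -3.07). The call of Sox11 was lost without adenoma arrays 1 and 2 (log2 difference 4.20).

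Matrix metalloproteinases cut the extracellular matrix and surface proteins. Of 25 genes of this family and its inhibitors 19 were tested and 7 were called, all higher, with a median of 1.74 (1.58 with limits). Mmp7 (matrilysin), which also activates alpha-defensins, had levels of 6.06 and 6.33 in the adenoma and -4.57, -5.17 and -1.24 in the epithelium (9.86 ± 0.98 SE, adjusted p = 0.000318). Mmp13, a collagenase, stood at 4.45 and 3.49 against -5.88, -4.86 and -4.36 (9.0 ± 1.15 SE, adjusted p = 0.00125). Mmp3 and Mmp10, the stromelysins, stood at 3.20 and 2.13 against -5.81, -3.27 and -2.22 and at 5.80 and 5.82 against -0.09, 0.05 and -1.40. For these 4 genes both adenoma samples lay above all epithelium samples. Without adenoma array 3, 4 of the 7 kept their call. The 7 include Mmp8 and Mmp12, named after their values were seen, which lie beside the others: Mmp13, Mmp12, Mmp3, Mmp10, Mmp8 and Mmp7 follow each other on chromosome 9 with no other tested gene between them, and all were called higher.

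The promoters of 5 of these neighbours are shown because each holds the AP-1 motif TGACTCA, or TGAGTCA on the other strand, at a like distance from the start. The motif begins 63, 63, 35, 46 and 44 bases before the start of Mmp7, Mmp10, Mmp13, Mmp3 and Mmp12. The stretches are chr9:7691960-7692089, chr9:7502212-7502341, chr9:7272384-7272513, chr9:7445692-7445821 and chr9:7347244-7347373, all on the plus strand of GRCm38.p6, and capitals mark the match.
Mmp7: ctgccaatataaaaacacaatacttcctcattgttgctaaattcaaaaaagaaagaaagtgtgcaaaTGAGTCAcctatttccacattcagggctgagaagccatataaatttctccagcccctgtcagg
Mmp10: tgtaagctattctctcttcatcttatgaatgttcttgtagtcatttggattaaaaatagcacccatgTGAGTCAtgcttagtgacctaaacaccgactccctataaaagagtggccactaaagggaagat
Mmp13: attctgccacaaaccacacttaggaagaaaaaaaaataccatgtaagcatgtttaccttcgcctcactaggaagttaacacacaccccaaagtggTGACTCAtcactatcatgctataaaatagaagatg
Mmp3: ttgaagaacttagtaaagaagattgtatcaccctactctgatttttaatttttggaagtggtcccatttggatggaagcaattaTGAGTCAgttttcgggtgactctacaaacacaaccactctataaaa
Mmp12: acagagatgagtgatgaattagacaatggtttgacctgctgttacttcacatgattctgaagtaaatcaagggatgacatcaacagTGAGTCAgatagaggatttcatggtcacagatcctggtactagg
The motif stood in 5 of the 7 called members of the family and in 5.16% of all promoters of the same length.

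Other matrix genes were more divided. Among collagens 5 of 35 were higher and 2 lower. Col9a3 rose by 5.17 ± 1.00 SE (-2.06 and -0.21 against -5.54, -5.94 and -7.43), Col7a1, of anchoring fibrils, by 2.50 ± 0.65 SE, and Col18a1, of basement membranes, by 2.14 ± 0.59 SE. Col4a6 and Col4a5, chains of a specialised basement membrane network, fell (-7.07 and -2.78), with another probe of Col4a6 at -1.07 and not called. Of the 5 higher calls 1 remained without adenoma array 3, and the class median of 0.45 was -0.06 without epithelium array 4. The laminin chains Lama1 and Lama5 rose by 4.48 ± 0.76 SE and 2.97 ± 0.65 SE. Of 32 Adam and Adamts proteases 7 were higher, led by Adamts1 (4.53 ± 1.19 SE) and Adam8 (4.51 ± 0.45 SE), a protease of activated leukocytes, and 2 of the 7 remained without adenoma array 3. Serpind1, an inhibitor of thrombin, was at least 32.1-fold higher. The calls of Lama1 and Lama5 were lost without adenoma array 3 (log2 differences 4.23 and 2.75).

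Many tissue kallikreins were lower. In the class of kallikreins and membrane serine proteases 41 of 79 were tested, 9 were lower and 4 higher. The lower ones were all tissue kallikreins, with Klk1b26 at 1.36 and -0.66 against 5.48, 4.73 and 5.20 (-4.78 ± 0.62 SE, adjusted p = 0.00138) and Klk1b4 at 1.93 and 0.37 against 5.82, 5.51 and 5.70 (-4.53 ± 0.63 SE). Both adenoma samples were low in each. Of the 9, 4 kept their call without adenoma array 3 and 9 without arrays 1 and 2. The Klk1b genes are close copies on chromosome 7, and a probe of any of them may bind transcripts of another, so they are not independent observations. Prss56, a serine protease, was at least 106-fold higher (another probe differed by 3.70 and was not called). The list also took in Prom2 by its name pattern, which is no protease but a membrane protein of cell protrusions, at least 77.2-fold higher.

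Antimicrobial products of Paneth cells were higher in the adenoma, although the mouse colon normally holds few or no Paneth cells. Of 13 alpha-defensin genes 9 were tested and 6 were called, all higher, and all 6 kept their call with any single sample left out. Defcr6 stood at 3.68 and 3.60 in the adenoma and was well above background on no epithelium array, at least 572-fold higher. Defa1 was at least 479-fold higher and Defa20 at least 184-fold, with adenoma levels of 3.52 and 3.24 and of 2.14 and 1.87. Defa23 was measured in both groups, at 2.40 and 1.68 against -6.05, -7.17 and -7.44 (8.93 ± 0.50 SE, adjusted p = 1.41e-05). Defensin genes are near-identical copies, so the number of members that moved cannot be told from these probes. Only 1 of the 9 tested was above background on every array of both groups (log2 difference 1.78). The others passed the filter through 1 group alone, so their count is not independent of that filter. Other Paneth cell products rose too: Itln1 (intelectin) stood at 2.76 and 3.50 against -2.22, -4.29 and 0.69 (5.07 ± 1.27 SE), and Pla2g2a, a secreted phospholipase that kills bacteria, at 4.83 and 4.82 against 1.16, -1.87 and 0.54 (4.88 ± 0.94 SE, adjusted p = 0.00965). Summed Paneth cell markers ran from 8.05 to 8.30 in the adenoma samples and 5.75 to 6.95 in the epithelium samples, with Defa1 and Defa20 well above background on no epithelium array. Their part beyond these genes was not tested. The calls of Itln1 and Pla2g2a were lost without adenoma array 3 (log2 differences 4.71 and 4.89). The call of Defa23 was lost with near-identical arrays as a random block (limma adjusted p = 0.103).

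Products of neutrophils were higher as well. Of 14 neutrophil markers 11 were tested and 9 were called, all higher. Only 2 of the 11 were above background on every array of both groups, with a median of 2.17. The others passed the filter through 1 group alone, so the count of calls is not independent of that filter. S100a9, a subunit of calprotectin, had levels of 4.07 and 3.87 in the adenoma and -7.38, -5.17 and -5.90 in the epithelium (10.12 ± 1.40 SE, adjusted p = 0.00184), and its partner S100a8 was at least 125-fold higher. Lcn2, which withholds iron from bacteria and is also made by epithelium, stood at 3.53 and 2.66 against -7.36, -5.01 and -6.26 (9.30 ± 1.12 SE). Retnlg was at least 18-fold higher. Each separated the groups in every sample, and 7 of the 9 calls remained without adenoma array 3. Summed neutrophil markers ran from 4.81 to 5.18 in the adenoma samples and -2.18 to -1.21 in the epithelium samples, and Cxcr2, Mmp8, Retnlg and S100a8 were well above background on no epithelium array. How far neutrophils within the dissected adenoma carry these values was not tested.

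Several interleukins rose. Of 35 interleukin genes 20 were tested, 8 were higher and Il7, a lymphocyte survival factor, was lower (-2.93 ± 0.51 SE). All 8 kept their call without adenoma array 3, and 6 did without arrays 1 and 2. Il6 was well above background on no epithelium array, at least 28.7-fold higher (adenoma 0.37 and -1.73). Il1b stood at 3.41 and 2.47 against -1.99, -3.65 and -4.71 (6.39 ± 0.81 SE, adjusted p = 0.00124), and Il11, a relative of Il6 from stromal and epithelial cells, at 3.89 and 0.99 against -2.56, -1.88 and -3.80 (5.19 ± 0.95 SE). The adenoma was high and the epithelium low in every sample. The class median of 1.72 was 0.32 with genes at their limit, and -0.74 over members above background on every array. Among Tnf family genes Tnfrsf11b (osteoprotegerin) rose by 7.38 ± 0.76 SE and Tnfrsf9 by 5.50 ± 0.70 SE. The list took in Ltbp2, a binding protein of latent Tgf-beta and no Tnf gene, by its name (5.59 ± 0.87 SE). The activin subunits Inhba and Inhbb rose by 5.49 ± 0.92 SE and 5.52 ± 0.96 SE, the latter with another probe at -1.60 that was not called. The call of Il7 was lost without adenoma array 3 (log2 difference -2.77). The calls of Inhba and Inhbb were lost without adenoma arrays 1 and 2 (log2 differences 4.67 and 5.01). The call of Ltbp2 was lost with near-identical arrays as a random block (limma adjusted p = 0.272).

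Chemokines that draw neutrophils and monocytes were among those that rose. Of 32 tested, 9 were higher and 3 lower. Cxcl1 had levels of 3.37 and 1.19 in the adenoma and -7.30, -3.39 and -7.42 in the epithelium (8.31 ± 1.48 SE, adjusted p = 0.00653), a call lost without adenoma arrays 1 and 2 (7.22). Cxcl5 stood at 3.53 and 2.53 against -7.58, -3.29 and -4.71 (8.22 ± 1.08 SE), and the monocyte attractant Ccl2 at 4.19 and 2.32 against -2.26, -5.65 and -5.15 (7.61 ± 1.19 SE). In each the adenoma was high in both samples. Of the 9 higher calls 8 remained without adenoma array 3 and 4 without arrays 1 and 2. Cxcl3 was at least 55.5-fold higher. Ccl28, which draws plasma cells to the mucosa, fell from 1.70, 1.57 and -1.51 to -2.81 and -4.19 (-4.08 ± 0.95 SE), and Cxcl12, a homing signal of stroma, from 3.72, 3.06 and 2.62 to 0.54 and -0.24 (-2.99 ± 0.49 SE). The class median of 0.16 turned negative in several alternatives, down to -0.62 over members above background on every array of both groups. The chemokine receptors Cxcr2 and Cxcr4 were at least 3.9-fold and 6.99-fold higher (another probe of Cxcr4 differed by 1.47 and was not called), while Ccr10, the receptor of Ccl28 on plasma cells, was well above background on no adenoma array and at least 5.32-fold lower. The calls of Ccl28, Cxcl12, Ccr10 and Cxcr4 were lost without adenoma array 3 (log2 differences -3.39, -2.59, -4.41 and 3.94).

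The promoters of the neighbours Cxcl1, Cxcl2 and Cxcl3 on chromosome 5 are shown because each holds the NF-kB motif, shown in capitals and searched on both strands. It was found in 0.414% of all promoters of this length. Cxcl2 was named after its value was seen (5.28 ± 0.71 SE), and its call was lost with near-identical arrays as a random block (limma adjusted p = 0.401). The motif begins 71, 97 and 73 bases before the start. The stretches are chr5:90891115-90891244, chr5:90903769-90903898 and chr5:90785971-90786100, on the plus strand of GRCm38.p6, with the match in capitals.
Cxcl1: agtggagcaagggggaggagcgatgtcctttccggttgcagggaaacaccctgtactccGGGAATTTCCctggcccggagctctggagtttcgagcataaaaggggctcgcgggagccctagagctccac
Cxcl2: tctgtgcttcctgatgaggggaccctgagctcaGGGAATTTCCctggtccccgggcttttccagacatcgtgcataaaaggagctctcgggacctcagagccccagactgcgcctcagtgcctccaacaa
Cxcl3: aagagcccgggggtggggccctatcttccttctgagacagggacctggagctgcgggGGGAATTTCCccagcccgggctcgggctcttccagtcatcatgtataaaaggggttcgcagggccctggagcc
Of the 9 chemokines called higher 4 have a promoter entry, and these 3 hold the motif.

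Other cells of the dissected tissue moved in both directions. Mast cell products were higher: of 10 tested 5 were called, all higher, with Hdc (the enzyme that makes histamine) at 1.45 and 1.78 against -2.54, -3.15 and -7.33 (5.96 ± 1.22 SE) and the mucosal proteases Mcpt1 at 1.22 and 0.54 against -3.04, -4.01 and -7.47 (5.72 ± 1.15 SE) and Mcpt4 at 0.31 and -0.53 against -3.87, -4.34 and -7.34. The groups did not overlap for these genes, but 2 of 5 calls remained without adenoma array 3 and 1 without arrays 1 and 2. Only 2 of the 10 mast cell genes were above background on every array of both groups, with a median of 0.38. Summed mast cell markers ran from 3.05 to 3.18 in the adenoma samples and 1.22 to 2.52 in the epithelium samples. Of 15 macrophage and dendritic cell genes 1 was called, the scavenger receptor Cd163, well above background on no adenoma array and at least 27.2-fold lower; their sum overlapped between the groups (6.22 to 6.50 in the adenoma samples and 5.47 to 6.66 in the epithelium samples). T and NK cell markers summed to 2.75 to 3.10 in the adenoma samples and 2.93 to 3.20 in the epithelium samples, also overlapping, with Gzmb, a granzyme of killer cells, higher (4.78 ± 0.76 SE) and Nkg7 lower (-2.91). Summed eosinophil markers ran from 0.13 to 1.80 in the adenoma samples and -1.56 to -0.38 in the epithelium samples, without overlap, and of 4 tested members 3 had a positive difference, with Prg2 at least 16.2-fold lower and Rnase2b 3.47 higher on the log2 scale. The calls of Nkg7 and Rnase2b were lost without adenoma array 3 (log2 differences -3.27 and 2.60).

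Antibody genes were lower in the adenoma. Of 23 immunoglobulin segments on the array 15 were tested and 14 were called, all lower, with a median of -6.02 (-4.19 with limits). Only 4 of the 15 were above background on every array of both groups, with a median of -2.99. The others passed the filter through 1 group alone, so the count of calls is not independent of that filter. Iglv1 stood at -5.73 and -3.01 in the adenoma and 6.34, 5.19 and 6.01 in the epithelium (-10.21 ± 0.76 SE, adjusted p = 6.27e-05), and Ighg was at least 99.9-fold lower on the probe used. Another probe of Ighg was called lower too, but with a log2 difference of only -1.97, so the fold holds for 1 probe. Jchain, which joins antibodies for transport, stood at -3.61 and -1.10 against 5.09, 4.16 and 4.70 (-7.00 ± 0.69 SE), and Tnfrsf17, a receptor of plasma cells, at -5.80 and -6.45 against 2.51, 1.01 and 0.10 (-7.33 ± 0.82 SE). Both adenoma samples were low for each. Of the 14 calls 11 remained without adenoma array 3 and 8 without arrays 1 and 2. Pigr, the epithelial receptor that carries these antibodies into the lumen, stood at 0.37 and -1.58 against 2.83, 2.28 and 5.43 (-4.12 ± 0.96 SE, adjusted p = 0.0226). Summed B and plasma cell markers ran from 4.80 to 5.59 in the adenoma samples and 6.32 to 7.26 in the epithelium samples, with Ighg well above background on no adenoma array. Segments share sequence, so their number is not a number of independent genes. How many plasma cells each dissection took in was not tested. The call of Pigr was lost without adenoma array 3 (log2 difference -3.15). The call of Ighg was lost with near-identical arrays as a random block (limma adjusted p = 0.138).

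Smooth muscle genes were lower too, 6 of 13, with Cnn1 (calponin) at -1.76 and -1.39 against 2.75, 2.59 and 2.96 (-4.34 ± 0.46 SE), Lmod1 at -2.55 and -2.97 against 1.43, 1.02 and 1.34 and Myh11, the smooth muscle myosin, at -4.37 and -4.14 against -2.79, -1.51 and -1.09. Their sum ran from 4.26 to 4.38 in the adenoma samples and 6.15 to 6.53 in the epithelium samples without overlap, and 2 of the 6 calls remained without adenoma array 3. Haemoglobin (Hba-a1, -4.64 ± 1.06 SE, and -3.02 without adenoma arrays 1 and 2) and Alas2 (-3.82 ± 0.78 SE), the haem synthesis enzyme of red cell precursors, were lower, and summed red cell markers ran from -2.56 to -0.17 in the adenoma samples and 2.43 to 3.51 in the epithelium samples. Fibroblast markers (7.27 to 7.49 in the adenoma samples and 6.88 to 7.54 in the epithelium samples) and endothelial markers (3.83 to 4.41 in the adenoma samples and 3.30 to 4.53 in the epithelium samples) overlapped between the groups, with Vim higher (1.90 ± 0.46 SE) and Fap lower (-2.54 ± 0.48 SE). By these sums, muscle, plasma cell and red cell transcripts were higher in the epithelium samples, and neutrophil and mast cell transcripts in the adenoma samples. The part of this mixture in the other classes was not tested. The calls of Alas2 and Vim were lost without adenoma array 3 (log2 differences -4.22 and 1.78). The call of Fap was lost without adenoma arrays 1 and 2 (log2 difference -2.17).

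Products of absorptive colonocytes, the most common cell of the colon surface, were lower. Of 18 tested 10 were called, all lower, with a median of -3.17. Summed markers ran from 6.86 to 7.26 in the adenoma samples and 8.47 to 9.59 in the epithelium samples without overlap. Slc26a3, the chloride and bicarbonate exchanger whose loss causes chloride diarrhoea, had levels of -1.83 and -4.51 in the adenoma and 5.70, 6.40 and 4.06 in the epithelium (-8.56 ± 0.83 SE, adjusted p = 0.000264). The water channel Aqp8 stood at 0.59 and -4.09 against 6.59, 6.48 and 3.31 (-7.20 ± 1.27 SE). The carbonic anhydrases Car4 and Car1 stood at 0.35 and -5.89 against 4.93, 5.57 and 1.05 and at 2.47 and 0.48 against 4.30, 5.22 and 4.61. Adenoma array 3 was lower than every other sample for Car4, and without it the difference of -6.63 became -3.51. Of the 10 calls 5 remained without that array and all 10 without adenoma arrays 1 and 2.

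Solute carriers, the wider family of membrane transporters, were called lower more often than higher. Of 278 solute carriers tested 32 were lower (11.5%) and 13 higher (4.68%), beside 6.65% and 5.31% of all tested features. The median was -0.54, beside -0.13 over all tested features. Slc6a4, which takes up serotonin, stood at -6.78 and -5.98 against 2.13, 2.45 and -1.30 (-7.48 ± 0.97 SE), Slc13a2, a citrate transporter, at -5.31 and -8.87 against 1.32, 1.00 and -2.31, and Slc5a8, which takes up short-chain fatty acids and lactate, at -2.63 and -3.77 against 4.17, 4.16 and 2.09 (-6.67 ± 0.72 SE). In each both adenoma samples were below all epithelium samples. In the other direction Slc30a2, a zinc transporter of vesicles, rose by 7.27 ± 1.18 SE. Of the 32 lower calls 9 remained without adenoma array 3. In the class of aquaporins and carbonic anhydrases 8 of 22 were lower, and Aqp5, a channel of glands, was at least 17.9-fold higher. All 8 lower calls were lost without adenoma array 3, and 4 remained without arrays 1 and 2. The call of Slc6a4 was lost with near-identical arrays as a random block (limma adjusted p = 0.0884).

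Many enzymes that oxidise and conjugate foreign compounds were lower. Of 51 cytochrome P450 genes tested 19 were lower and 2 higher (median -0.96), of 34 conjugating enzymes 11 lower and 2 higher (median -1.44), and of 34 alcohol, aldehyde and aldo-keto oxidoreductases 10 lower and 1 higher (median -1.23). Cyp2f2 was well above background on no adenoma array and at 4.32, 4.22 and -1.63 in the epithelium, at least 497-fold lower. Cyp2c55 stood at -6.22 and -5.99 against 1.02, 1.64 and 3.09 (-8.02 ± 0.74 SE, adjusted p = 0.000208), and Cyp2c40 at -3.51 and -3.34 against 5.64, 5.58 and 1.83. The sulfotransferases Sult1c2 and Sult1a1 fell from 3.94, 3.74 and 3.19 to -4.75 and -5.71 and from 5.47, 4.90 and 4.72 to -3.16 and -3.62. No epithelium sample reached down to the adenoma for any of these. Akr1c14, a hydroxysteroid dehydrogenase, fell by 7.09 on the log2 scale. Adh1, an alcohol dehydrogenase, differed by -4.83 and Aldh1a1, which makes retinoic acid, by -4.76, while Aldh1a3, which makes it too, rose by 3.45 ± 0.64 SE. Cyp1b1, an enzyme also known from tumors and stroma, was at least 2.96-fold higher. Of the lower calls 11 of 19, 5 of 11 and 4 of 10 remained without adenoma array 3. Genes of the Cyp2c and Cyp2d families are close copies, and their probes may share signal. The call of Cyp1b1 was lost without adenoma array 3 (log2 difference 4.27). The call of Aldh1a3 was lost without adenoma arrays 1 and 2 (log2 difference 2.71).

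The promoters of Slc26a3 and Cyp2c65 are shown because they hold a motif of Hnf4, a receptor that drives genes of absorptive cells. Cyp2c65 was chosen for its motif after its value was seen (-3.24 and -5.65 against -0.50, 0.11 and 2.68, -5.21 ± 1.07 SE). The letters searched were CAAAGTCCA and CAAAGGTCA on both strands. The motif begins 136 and 116 bases before the start, in stretches at chr12:31437969-31438218 and chr19:39060876-39061005 on the plus strand of GRCm38.p6, with the match in capitals.
Slc26a3: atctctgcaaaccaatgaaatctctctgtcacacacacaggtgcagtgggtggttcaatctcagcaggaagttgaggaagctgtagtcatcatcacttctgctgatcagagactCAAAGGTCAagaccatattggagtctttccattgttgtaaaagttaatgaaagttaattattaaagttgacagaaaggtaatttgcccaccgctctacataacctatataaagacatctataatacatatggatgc
Cyp2c65: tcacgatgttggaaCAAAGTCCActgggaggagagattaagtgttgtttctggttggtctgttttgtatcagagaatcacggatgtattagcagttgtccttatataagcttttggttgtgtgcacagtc
Most members of these classes lack the motif. Among genes called lower with a promoter entry it stood in 1 of 8 absorptive genes, 2 of 14 cytochrome P450 genes and 1 of 28 solute carriers. An Hnf4 motif stood in 15 of 766 promoters of genes called lower (1.96%), in 3 of 624 of those called higher (0.481%) and in 85 of 9974 of those not called (0.852%). These shares were not tested against each other.

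Lipid handling was lower in part. Fabp2, the intestinal fatty acid binding protein, fell from 5.39, 3.05 and 5.91 to 2.17 and -1.24 (-4.32 ± 1.16 SE, and -2.62 without adenoma array 3), and Apob, the core protein of lipoproteins, from -0.40, 0.82 and -1.71 to -4.84 and -4.40 (-4.19 ± 0.85 SE). Of 26 genes of this class 7 were lower. The list also took in Apobec3, an enzyme that edits nucleic acids and no lipid carrier, called higher (2.06; another probe -0.90 and not called). Of 42 acyl-CoA enzymes 6 were lower, with Acsm3 (-4.00 ± 0.47 SE) and Cpt1a, which admits fatty acids to mitochondria (-2.14 ± 0.54 SE), and Acox2 higher (3.81 ± 0.64 SE). Without adenoma array 3, 1 of the 7 and 1 of the 6 lower calls remained. Those of Apobec3 and Acox2 were lost too (1.44 and 3.51).

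Among the lists of epithelial cell types, that of hormone cells had the largest share of calls. Of 16 enteroendocrine genes tested 11 were lower and 1 higher, with a median of -3.44, and 9 of the 11 kept their call without adenoma array 3. Gcg, the precursor of glucagon-like peptides, was well above background on no adenoma array and at 3.04, 2.47 and 4.28 in the epithelium, at least 966-fold lower. Insl5, a hormone of distal colon L cells, stood at -4.62 and -3.99 against 5.32, 4.73 and 4.14 (-9.03 ± 0.48 SE, adjusted p = 1.23e-05). Chgb, a granule protein, stood at 0.56 and -2.07 against 5.61, 4.33 and 4.42 (-5.55 ± 0.89 SE), and Tph1, which starts serotonin synthesis, at -3.52 and -4.11 against 2.17, 1.32 and 0.66 (-5.20 ± 0.49 SE). The adenoma samples were low for all of these, and summed markers ran from 2.55 to 3.54 in the adenoma samples and 6.95 to 7.77 in the epithelium samples, with Gcg and Pax6 well above background on no adenoma array. Isl1, an islet factor, was higher (3.53 ± 0.64 SE). The call of Isl1 was lost without adenoma array 3 (log2 difference 3.08).

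Goblet and tuft cells lost some products and not others. Of 13 goblet cell genes tested 5 were lower, and their sum ran from 8.26 to 8.40 in the adenoma samples and 9.31 to 9.69 in the epithelium samples. Clca1, a mucus-processing protease, stood at 3.01 and 0.58 against 6.84, 6.70 and 6.25 (-4.80 ± 0.63 SE), and Zg16, a lectin of mucus, at 4.51 and 1.25 against 6.98, 6.80 and 6.32 (-3.81 ± 0.93 SE, and -2.19 without adenoma array 3). The mucin Muc2, named after its value was seen, was not called (4.27 and 5.92 against 5.90, 5.41 and 6.28, -0.77 ± 1.00 SE). Of the 5 goblet calls 1 remained without adenoma array 3. Of 9 tuft cell genes 4 were lower, among them the cation channel Trpm5 (-4.44 and -6.25 against -1.38, -1.83 and 0.51, -4.45 ± 0.94 SE), Alox5 (-2.92, and -1.84 without adenoma array 3) and Dclk1 (-2.75, and -1.77 without arrays 1 and 2, another probe -0.42 and not called). All 4 lower calls were lost without adenoma array 3. The actin-binding protein Avil was higher (3.34 ± 0.58 SE), and the summed tuft markers of 5.03 to 5.58 in the adenoma samples and 3.90 to 5.08 in the epithelium samples overlapped. The calls of Trpm5 and Avil were lost without adenoma array 3 (log2 differences -3.54 and 2.73).

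Prostaglandin genes moved at both ends of the pathway. Ptgs2, the inducible cyclooxygenase that sulindac targets, had levels of 1.26 and -0.37 in the adenoma and -4.68, -6.23 and -6.69 in the epithelium (6.31 ± 1.20 SE, adjusted p = 0.00895). Hpgd, which breaks prostaglandins down, stood at -1.91 and -1.48 against 2.36, 2.59 and 0.58 (-3.54 ± 0.60 SE, adjusted p = 0.00518). Ptgs2 was high and Hpgd low in both adenoma samples. Both calls were lost without adenoma arrays 1 and 2 (5.49 for Ptgs2 and -3.33 for Hpgd). Ptgs1, the constitutive enzyme, was not called (1.24 and 0.82 against 2.61, 2.09 and 0.72, -0.78 ± 0.57 SE). Ptger3, a receptor of prostaglandin E2, fell by 7.03 on the log2 scale, from -1.49, 0.42 and -1.96 to -7.00 and -9.07.

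Cholesterol synthesis is the pathway that atorvastatin blocks, and only the epithelium came from treated mice. Of 23 genes of synthesis and uptake 1 was called, Dhcr7, which catalyses a final step to cholesterol and was lower in the adenoma (2.20 and 2.08 against 4.67, 4.56 and 3.96, -2.26 ± 0.46 SE, adjusted p = 0.0128; another probe -0.79 and not called). The median of the 23 was -0.71, beside -0.13 over all tested features. Of them 17 had a negative and 6 a positive difference. In 9 the limma unadjusted p was under 0.05, beside 5036 of all 17417 tested features. The samples of 11 did not overlap, while this held for 46.3% of all tested features. Hmgcs1, an early enzyme of the pathway, differed by -1.39 ± 0.47 SE (another probe 1.57) and Sqle, a later one, by -0.41 ± 0.43 SE, neither of them called. The call of Dhcr7 was lost without adenoma array 3 (log2 difference -2.20).

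Genes of the cell's basic machinery, histocompatibility genes and p53 targets were rarely called. Limma called 0 of 80 cytosolic ribosomal proteins (2 at an unadjusted p under 0.05), 0 of 78 mitochondrial ribosomal proteins (2), 0 of 34 aminoacyl-tRNA synthetases (2), 0 of 22 major histocompatibility genes (2) and 0 of 19 p53 targets and cyclin-dependent kinase inhibitors (4). All 22 histocompatibility genes had a negative difference (median -0.70), beside 9495 of all 17417 tested features. So had 76 of the 80 cytosolic ribosomal proteins, whose median of -0.42 was 0.05 after quantile normalization. Of the p53 targets and inhibitors 10 had a positive and 9 a negative difference. Of 21 mitosis genes only the kinase Aurkb was called (1.98 ± 0.50 SE), 19 had a positive difference and the median was 0.70 (0.43 without epithelium array 2). Mki67, the usual proliferation marker, had the lowest difference of them and stood at 4.37 and 3.60 against 4.60, 3.73 and 4.75, overlapping (-0.37 ± 0.50 SE, another probe 0.09). Of 47 replication genes 3 were higher, Rrm2, a subunit of ribonucleotide reductase (2.24 ± 0.54 SE), Rpa2 (1.67 ± 0.39 SE) and Orc6 (1.56 ± 0.38 SE), and 40 had a positive difference (median 0.82). The tumor suppressor Trp53 differed by -0.44 ± 0.73 SE and Cdkn1a, the inhibitor it induces, by -1.24 ± 0.73 SE, neither called. Without adenoma array 3 none of the named mitosis and replication genes kept a call (log2 differences 1.87, 2.06, 1.47 and 1.23 for Aurkb, Rrm2, Rpa2 and Orc6). Of 88 respiratory chain genes 5 were called lower (5.68%, beside 6.65% of all tested features), and 86 had a negative difference. In 28 of them the limma unadjusted p was under 0.05, as in 5036 of all 17417 tested features. In 60 of them the samples did not overlap, beside 46.3% of all tested features. The median was -0.77, beside -0.13 over all tested features. The muscle forms Cox8b and Cox7a1 were among those called (Cox8b at least 18.8-fold lower, Cox7a1 -3.22), and the summed smooth muscle markers were lower as well; their part in the result was not tested. The calls ran from 0 without adenoma array 3 to 62 with the slide as a block over separate arrays. Of 151 tested olfactory receptors, 7 were lower and 1 higher, 5.30% in all, beside 12% of all tested features. Yet 133 of them had a negative difference, with a median of -0.80, beside -0.13 over all tested features. Their median levels were low, -5.14 and -5.02 in the adenoma and -3.98, -3.82 and -4.77 in the epithelium. A class median of this size was thus also seen in a class of dim probes with few calls, and its cause was not tested.

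Called genes often lay beside each other. Of 814 placed genes called higher 20% had an adjacent tested gene with the same call, against 10.4% of uncalled genes with such a neighbour, and of 976 called lower 25%, against 12%. With neighbours of the same gene family left out the shares were 14.5% against 9.74% and 17.1% against 11.4%. These neighbours were picked out after their values were seen. The longest runs were 8 immunoglobulin kappa segments on chromosome 6, 8 tissue kallikreins on chromosome 7 and 7 Cyp2d genes on chromosome 15, all lower, and the 7 genes of the metalloproteinase run on chromosome 9, which ends with Tmem123, all higher. Carboxylesterases gave runs of 6 and 4 on chromosome 8 and Cyp2c genes of 6 on chromosome 19, all lower. The lectins Reg3b, Reg3a, Reg1 and Reg3g gave a run of 4 on chromosome 6, all higher. On chromosome 18, where Apc lies, 31 of 354 tested genes were higher (8.76%) and 14 lower (3.95%), beside 5.31% and 6.65% of all tested features. Chromosomes 1, 12 and 14 had 7.52%, 7.28% and 7.2% higher. Chromosome 18 also holds Pcdhb14, Pcdhb15, Pcdhb16 and Pcdhb17, a run called higher whose probes may share signal. A link to Apc was not tested.

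Over all promoters, the motif shares differed between the called sets. A Tcf/Lef motif stood in 10.1% of 624 promoters of genes called higher, in 7.96% of 766 called lower and in 6.42% of 9974 not called. AP-1 stood in 6.89%, 6.4% and 4.11%, NF-kB in 1.28%, 0.653% and 0.441%, and a TATA box (TATAAA, on the strand of the gene) in 12.2%, 7.57% and 5.61%. The motif of the intestinal Cdx factors (TTTATGG and TTTATTG, both strands) stood in 4.81%, 5.74% and 5.09%. The median ratio of observed to expected CpG was 0.592, 0.52 and 0.739. Promoters of called genes held fewer CpG in both directions, and the part of base composition in these shares was not tested.

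The epithelium samples varied among themselves, and differently by class. Epithelium array 4 was the sample nearest to the adenoma for 64.91% of 1157 genes called lower with a value in all samples and for 37.61% of 920 called higher, beside 49.58% of 17373 tested features. Absorptive markers had median levels of 4.94, 5.06 and 3.54 in the epithelium and 0.47 and -2.58 in the adenoma, and cytochrome P450 genes -1.80, -1.73 and -2.18 against -3.77 and -3.28. For alpha-defensins (-6.55, -7.13 and -7.42 against 1.77 and 1.44) and enteroendocrine genes (-0.63, -0.35 and 0.88 against -3.09 and -2.75) array 4 lay farthest from the adenoma, and for Wnt targets the epithelium samples were close to each other (-0.94, -0.73 and -0.77). Without array 4 the class medians were -3.30 for absorptive genes (from -3.17), -1.27 for cytochrome P450 genes (from -0.96) and 3.57 for Wnt targets (from 3.17). Within the shared scan dates the Wnt target medians were 3.35 and 3.59, those of the alpha-defensins 8.28 and 8.28, and those of the enteroendocrine genes -3.71 and -4.33. The smooth muscle median of -1.82 was -1.03 and -0.67 within them, and the endothelial median of 0.35 turned to -0.22 and -0.55.

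**Figure D5:**
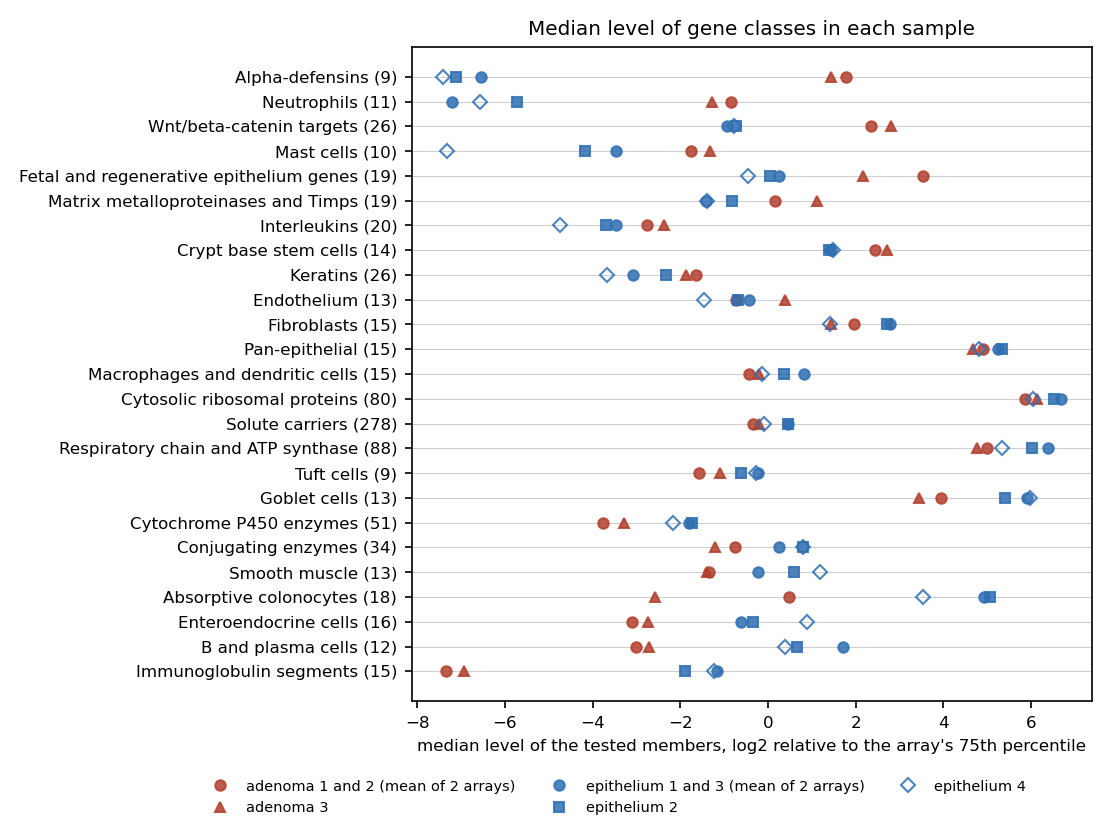
Median log2 level of the tested members of 25 classes (horizontal, relative to the array's 75th percentile) in each of the 2 adenoma and 3 epithelium samples. Both adenoma samples lie apart from all epithelium samples in the defensin, Wnt target and enteroendocrine classes, while the order of the epithelium samples changes from class to class.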

How the data were processed

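Per the file headers, the deposited scanner files hold spot intensities from single-colour arrays read with Agilent Feature Extraction 9.5.3, with background subtracted and not normalized between arrays. Per the deposited series table, whose log2 values have a median of 8.64 in every column, the authors also normalized between arrays, by a method that no source used here names. That table's 4 columns of tumor-bearing epithelium matched the scanner files of that group in reverse order (r 0.992 to 0.995, against 0.92 to 0.967 for the file of the same sample), so its columns were assigned by this match. Its centring follows from the equal medians, and its direction and log2 scale from that match.

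From the scanner values, spots flagged as outliers and 1639 control spots were left out, spots of a probe were averaged, log2 was taken and the array's 75th percentile subtracted. Probes were named through accessions (22951), symbols (6659) and synonyms (3109) of the RefSeq table, 1799 kept the file's name and 6656 had none. A gene with several probes was read from the probe with the highest mean, which left 27791 features. Of the 185 called genes named, 47 have several tested probes, and in 5 another probe had the opposite sign (Apobec3, Fzd8, Inhbb, Msi1 and Pcdh19). In 28 of the 47 every other probe was called in the same direction, and in 18 at least 1 other probe was not called. Among the 18 are Cpt1a (other probe -1.24), Fabp2 (-4.04), Nkg7 (-2.40), Tcf7l1 (-3.97) and Tmem123 (1.51). A feature was tested if it was well above background on every unflagged array of at least 1 of both groups. Limma 3.58.1 in R 4.3.3 (lmFit, eBayes) was fitted to all 10 samples of the 4 groups of the series, with near-identical arrays averaged and 6 residual degrees of freedom. A bound ("at least") sets the brighter group's mean against the dimmer group's, taking on each array the higher of the probe's own value and the lowest signal well above background. The summed level of a marker list is log2 of its summed linear levels. The script was tested on simulated data. Array signal is not a count, so the number of arrays limits the precision.

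Named genes are, among called genes with a symbol, the 12 largest rises and 12 deepest falls measured in both groups, the 8 highest bounds in each direction, up to 4 members of each class in its main direction and 2 in the other, and a fixed list of pathway and marker genes; not all of them are given, some are not reported here, and exceptions are stated where they occur. The members and lists were chosen with earlier results of these data known.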

Additional observations from a re-analysis of the deposited data

How the results depend on the processing

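The number of genes called depended strongly on how arrays were counted. Against 2084 in the fit described, limma called 6910 with every array as its own sample, 6855 with the scan date and 7868 with the slide as a block over separate arrays and 6102 with array weights. It called 1317 with only both groups in the fit and 1258 without array 2 of either epithelium. Leaving out single arrays gave 604 (without adenoma array 3) to 4086 (without epithelium array 4), and leaving out whole averaged pairs gave 907 without adenoma arrays 1 and 2 and 1285 without epithelium arrays 1 and 3. Replicate numbers did not pair the samples (correlations of deviations -0.10 to 0.09), and the replicate block on separate arrays gave 7479 calls. The other planned settings gave 1513 to 2345. Among them, near-identical arrays as a random block gave 2249, of which 1570 are among the 2084, and 26 of 185 named genes lost their call there (Apob, Aurkb, Axin2, Ccl28, Ccr10, Cdh26, Col4a5, Col9a3, Cox8b, Cxcl2, Defa23, Ighg, Krt27, Ltbp2, Mcpt2, Mmp12, Msi1, Myh11, Nr1i3, Pax6, Reg1, Rnase2b, Slc6a4, Sox11, Tpsab1 and Wnt10a). Of the calls 44.4% were higher, 49.9% after quantile normalization, 52.4% in the authors' deposited table and 32.8% over features above background on every array of both groups. The median of all tested features was 0.04 after quantile normalization and 0.03 in the authors' deposited table, in place of -0.13.

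No called gene that is named changed sign in any setting in which it was tested. Of 183 such genes tested without adenoma array 3, 106 kept their call, and of 185 tested without adenoma arrays 1 and 2, 126 did. Some genes that were not called changed sign. After quantile normalization Cdh1 was 0.38, Cdx2 0.050, Mki67 0.012 and Sqle 0.037, and in the authors' deposited table Cdh1 was 0.43, Cdx2 0.16, Krt8 1.49e-05, Mki67 0.088 and Sqle 0.11. With array weights Cdx2 was 1.00 and Mki67 0.056. Trp53 was 0.22 with scan date and 0.0022 with slide as a block. With single arrays left out Ass1 ran from -0.75 to 0.31, Cdh1 from -0.39 to 0.13, Cdx2 from -1.18 to 0.44, Mki67 from -0.69 to 0.0088 and Trp53 from -0.75 to 0.83. Without array 2 of either epithelium Cdh1 was 0.068, and without epithelium arrays 1 and 3 it was 0.028. Without adenoma arrays 1 and 2 Muc2 was 0.060. The cause of these changes was not tested. The 5 samples, and 216 higher and 84 lower genes with only a limit in a group, restrict how far sizes can be read.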

Other observations

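Enzymes of the urea cycle, picked out here after their values were seen, pointed in different directions. The mitochondrial enzymes were lower in the adenoma. Cps1, which makes carbamoyl phosphate, stood at -6.70 and -7.02 in the adenoma, where it was well above background on no array, and at -0.43, -1.36 and -3.46 in the epithelium, at least 29.7-fold lower (limma adjusted p = 0.00731). Nags, which makes the activator of Cps1, stood at -4.04 and -3.30 against -0.82, -0.02 and 0.79 (-3.65 ± 0.85 SE, adjusted p = 0.022), and Otc, which uses carbamoyl phosphate, differed by -8.06. Arg1, the arginase that ends the cycle and is also made by myeloid cells, was higher, at 1.85 and -0.28 against -7.49, -8.23 and -1.84 (6.64 ± 1.57 SE, adjusted p = 0.0242). The groups did not overlap for these genes. Ass1 and Asl, the enzymes between them, were not called (-0.74 and -0.50). The calls of Cps1, Nags and Arg1 were lost without adenoma array 3 (log2 differences -4.95, -4.03 and 7.70). They were lost without adenoma arrays 1 and 2 too.

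Some wide differences missed the threshold, also picked out after their values were seen. Hoxb13, a Hox factor of the hindgut and prostate, stood at -7.23 and 1.44 in the adenoma and 5.24, 5.25 and 1.00 in the epithelium (-6.72 ± 2.07 SE, adjusted p = 0.064). Adenoma array 3 and epithelium array 4 overlapped, so the samples of each group disagreed on it. S100g, a calcium-binding protein that vitamin D induces, stood at -3.55 and -1.45 against 4.02, 4.95 and -0.44 (-5.34, adjusted p = 0.0609). Msln (mesothelin, a surface protein) stood at -0.38 and -0.69 against -2.07, -8.47 and -7.44 (5.46, adjusted p = 0.07), and the tight junction protein Cldn4 at -0.22 and 0.79 against -4.11, -2.99 and -5.85 (4.60, adjusted p = 0.0779). For these 3 the groups did not overlap.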
